A study of Mus musculus with 2 samples.

Results

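Camta1 is a long mouse gene on the minus strand of chromosome 4, where GENCODE places it at chr4:150433633-151235985 of the genome build NCBIM37 (mm9), a length of 802 kb. It was selected on the comparison described here, because differentially methylated positions (DMPs) of both directions lie in it, so that its DMPs are given as a description and without a test. All covered cytosines of the gene body and of the 5 kb before its start were taken, which gave 602 of the 826937 positions in the deposited table of both libraries. They belonged to 563 CpGs, 4.88% of the 11527 CpGs of this window, and 39 of these CpGs were covered on both strands. Each of the 602 positions was the cytosine of a CpG in NCBIM37.

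The data are reduced representation bisulfite sequencing (RRBS) of mouse embryonic fibroblasts (MEFs) of the strain C57BL/6. The wt MEFs were wildtype and the βerko MEFs carried the genotype ESR2 -/-, a knock-out of oestrogen receptor β, a nuclear receptor for oestrogens. There was 1 library per cell type, made from pooled DNA of 3 batches, so that no spread between cultures or animals can be estimated and the 2 libraries stand for themselves. Methylation values do not show whether Esr2 was disrupted, and no marker of fibroblasts can be read from them.

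CAMTA1 is a calmodulin-binding transcription activator. The family carries a CG-1 domain that binds DNA, ankyrin repeats and IQ motifs, the usual docking sites of the calcium sensor calmodulin, and Camta1 itself is best known from the nervous system. In mammalian DNA, most cytosines of CpGs carry a methyl group, while CpG islands at gene starts are mostly free of it. RRBS cuts DNA with MspI at CCGG, keeps fragments of a chosen size and converts unmethylated cytosines with bisulfite, so that it reads CpGs close to CCGG sites and few others.

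Of the 602 positions, 7 were hypomethylated DMPs, above 80% methylation in wt and below 20% in βerko MEFs with more than 4 reads in both libraries. In the opposite direction, 11 were hypermethylated DMPs, below 20% in wt and above 80% in βerko MEFs. They are called losses and gains for short. Over all covered positions, 0.700% were hypomethylated and 0.237% hypermethylated DMPs, against 1.16% and 1.83% in Camta1, but the gene was chosen by these counts and nothing follows from the difference. All 18 DMPs lay in introns, none in a promoter (500 bp before to 100 bp after a transcript start) or in an exon. By the definition of at least 3 DMPs of 1 direction with gaps of at most 100 bp, neither direction formed a cluster.

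The sequences below show 8 of the 18 DMPs. They are the loss covered on both strands, the loss with the most reads, the losses 26 bp apart, the gain nearest to the gene start, the gain with the most reads, the gain from 0 to 100% and a gain in a tandem repeat. All are reference sequence of the plus strand of NCBIM37, 5′ to 3′, with the CpG of each DMP in capitals, named by direction and by distance from the gene start.
Hypomethylated, 205.59 kb, chr4:151030356-151030437: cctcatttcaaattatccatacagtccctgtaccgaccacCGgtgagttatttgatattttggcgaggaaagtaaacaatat
Hypomethylated, 721.1 kb, chr4:150514845-150514926: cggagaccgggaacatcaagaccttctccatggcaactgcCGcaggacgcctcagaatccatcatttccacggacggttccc
Hypomethylated pair, 754.25 and 754.22 kb, chr4:150481696-150481803: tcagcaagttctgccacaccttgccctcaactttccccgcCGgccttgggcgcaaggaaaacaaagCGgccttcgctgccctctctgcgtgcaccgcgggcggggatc
Hypermethylated, 87.47 kb, chr4:151148476-151148557: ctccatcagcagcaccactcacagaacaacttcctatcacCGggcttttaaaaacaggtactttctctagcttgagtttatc
Hypermethylated, 122.15 kb, chr4:151113790-151113871: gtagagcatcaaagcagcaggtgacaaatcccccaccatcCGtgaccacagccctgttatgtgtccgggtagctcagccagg
Hypermethylated, 353.56 kb, chr4:150882385-150882466: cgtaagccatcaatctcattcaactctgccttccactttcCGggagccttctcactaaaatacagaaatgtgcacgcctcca
Hypermethylated, 725.58 kb, chr4:150510367-150510448: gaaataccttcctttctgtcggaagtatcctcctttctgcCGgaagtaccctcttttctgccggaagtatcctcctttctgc
The losses at 721.1 kb and in the pair sit among several other CpGs, with 6 and 9 CpGs in the stretches shown. Of the gains shown, that at 87.47 kb is the only CpG of its stretch. The last sequence is a tandem repeat, and the 30 bases around its CpG occur 3 times on chromosome 4, whereas those of the other 17 DMPs occur once. The authors' annotation named no repeat at any of the 18.

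The levels at the hypomethylated DMPs follow in the order of transcription. At 205.59 kb (position 151030396, plus strand), methylation was 91.7% of 12 wt reads (exact 95% interval 61.5 to 99.8%) and 3.33% of 30 βerko reads (0.0844 to 17.2%). The opposite strand of this CpG was covered too, at 75.0% in wt against 0% in βerko MEFs, so that both strands of 1 CpG were low in βerko MEFs. At 257.21 kb (150978774), methylation was 100% of 10 wt reads (69.2 to 100%) and 9.09% of 66 βerko reads (3.41 to 18.7%). At 475.21 kb (150760779), it was 100% of 7 wt reads (59.0 to 100%) and 3.45% of 29 βerko reads (0.0873 to 17.8%). Of the 22 introns of the longest transcript, the first pair of these losses lay in intron 3 and the last in intron 5, all at 16497 bp or more from an exon.

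The other 4 losses lay close together near the 3′ end, from 721.1 to 754.63 kb. At 721.1 kb (150514885), the loss with the most reads, methylation was 80.5% of 41 wt reads (65.1 to 91.2%) and 8.14% of 86 βerko reads (3.34 to 16.1%). Its wt level was just inside the threshold, and its difference of -72.35 percentage points was the smallest of the 7. At 754.22 kb (150481762) and 754.25 kb (150481736), 26 bp apart, wt MEFs were methylated in 100% of 6 reads at both (54.1 to 100%). In βerko MEFs, the values were 7.55% (2.09 to 18.2%) and 0% (0 to 6.72%) of 53 reads at each. At 754.63 kb (150481354), methylation was 87.0% of 23 wt reads (66.4 to 97.2%) and 2.38% of 42 βerko reads (0.0603 to 12.6%). The intervals cover counting error only, and that they do not overlap between the libraries follows largely from the criterion by which DMPs were chosen. Reads copied by PCR and not tagged by molecule can repeat each other, and the intervals take no account of this.

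The gains began nearer to the gene start. At 87.47 kb (151148517), methylation was 7.14% of 28 wt reads (0.877 to 23.5%) and 95.7% of 46 βerko reads (85.2 to 99.5%). At 122.15 kb (151113831), it was 17.9% of 39 wt reads (7.54 to 33.5%) and 93.8% of 81 βerko reads (86.2 to 98.0%), the gain with the most reads. At 144.4 kb (151091584), it was 7.14% of 28 wt reads and 86.2% of 29 βerko reads (68.3 to 96.1%). All 3 lay in intron 3, the longest at 244 kb, together with a gain at 249.77 kb (150986216) from 6.45% of 31 reads (0.791 to 21.4%) to 89.2% of 37 reads (74.6 to 97.0%).

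Intron 4 held 2 gains and no loss. At 326.14 kb (150909850), methylation was 9.09% of 11 wt reads (0.230 to 41.3%) and 81.0% of 21 βerko reads (58.1 to 94.6%), the smallest difference of the 11 at 71.86 percentage points. At 353.56 kb (150882425), it was 0% of 14 wt reads (0 to 23.2%) and 100% of 32 βerko reads (89.1 to 100%), the largest. Both libraries gave uniform reads there.

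Further downstream, reads were fewer at several gains. At 470.68 kb (150765310), methylation was 0% of 5 wt reads (0 to 52.2%) and 84.6% of 13 βerko reads (54.6 to 98.1%), the shallowest of the 18. At 689.18 kb (150546808), it was 18.8% of 16 reads (4.05 to 45.6%) and 96.7% of 30 reads (82.8 to 99.9%). At 723.75 kb (150512232), 0% of 6 reads (0 to 45.9%) stood against 87.5% of 16 reads (61.7 to 98.4%). In the tandem repeat at 725.58 kb (150510408), 17.4% of 23 reads (4.95 to 38.8%) stood against 93.3% of 75 reads (85.1 to 97.8%), and at 731.04 kb (150504941) 0% of 12 reads (0 to 26.5%) against 86.7% of 15 reads (59.5 to 98.3%). The interval of 1 library came closest to that of the other at 470.68 kb.

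**Figure D1:**
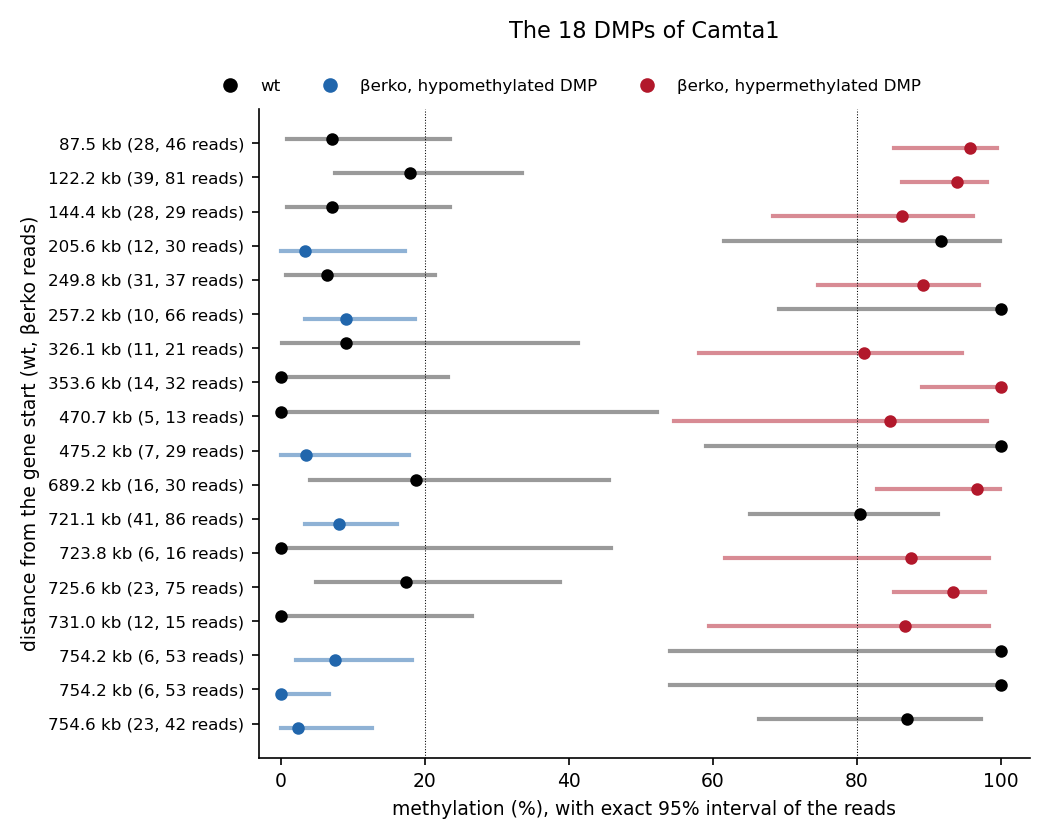
Methylation (%) of the 18 DMPs of Camta1 in wt MEFs (black) and βerko MEFs (blue for hypomethylated, red for hypermethylated DMPs), in the order of transcription, with exact 95% intervals of the reads as bars and the thresholds of 20 and 80% dotted. The positions were chosen for values beyond both thresholds, and the wt bars are widest where wt reads were fewest, as at 470.7 kb with 5 reads.

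Losses and gains were interspersed along the gene, with 9 switches of direction over the 18 DMPs and runs of the same direction between them. Whether this order differs from a random one was not tested. The closest pair of opposite DMPs was the loss at 721.1 kb and the gain at 723.75 kb, 2653 bp apart. Other losses with a gain nearby were those at 475.21 kb, 4531 bp from the gain at 470.68 kb, and at 257.21 kb, 7442 bp from the gain at 249.77 kb. Intron 11, of 42.6 kb, held 3 losses and 1 gain, and intron 3 held 2 losses and 4 gains.

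**Figure D2:**
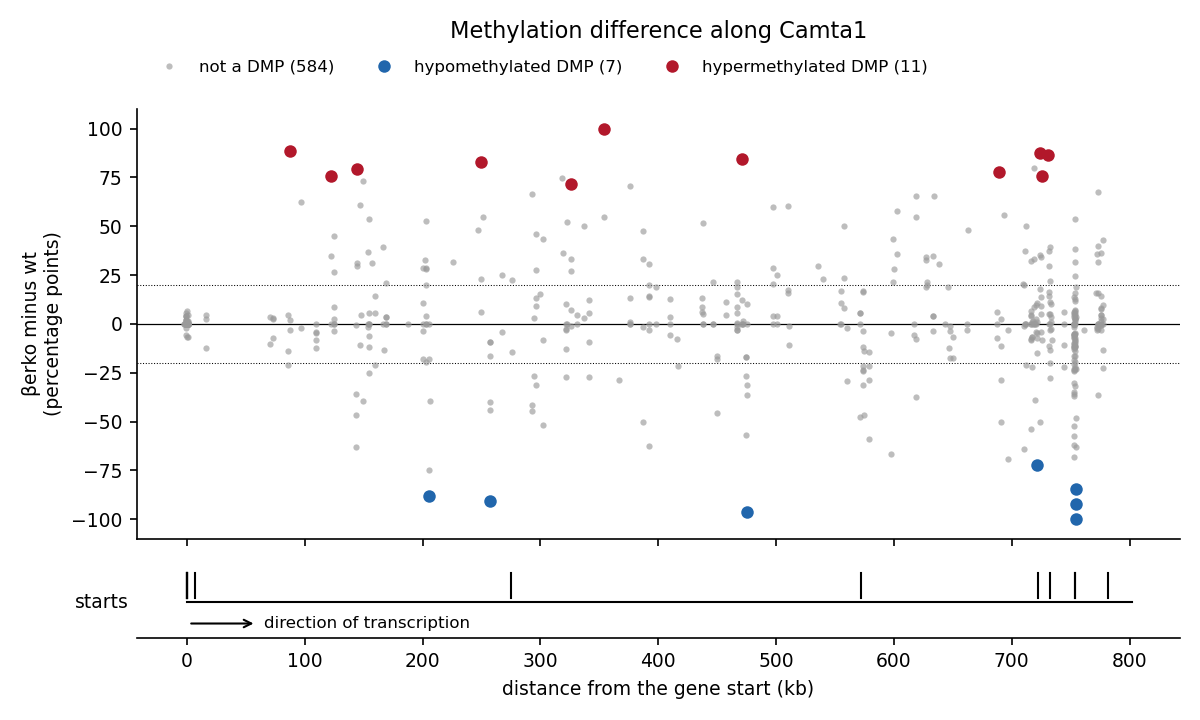
Difference in methylation, βerko minus wt (percentage points), of the 602 covered positions against distance from the gene start (kb), with hypomethylated DMPs in blue, hypermethylated DMPs in red and the other 584 positions in grey. Dotted lines mark 20 points in either direction and ticks below mark annotated transcript starts. The positions at the gene start lie near the zero line, and the first DMP is at 87.47 kb.

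The DMPs were the ends of a broader spread. At least 20 percentage points lower in βerko MEFs were 78 positions of Camta1, 13.0%, against 10.4% of all covered positions. At least 20 points higher were 103 positions, 17.1%, against 6.81% of all covered positions. Of the 78, 25 differed by at least 50 points, and of the 103, 36 did. The higher positions had intermediate wt levels at 67 and levels below 20% at 36, and the lower positions had intermediate wt levels at 38 and levels above 80% at 40. With the 18 DMPs left out, which are part of the choice of the gene, 12.2% of the other positions were lower and 15.8% higher by that margin.

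Within 5 percentage points of both thresholds, 10 positions stood just outside the criterion. The position at 718.56 kb (150517428) was methylated at 0% in wt and at exactly 80% in βerko MEFs. At 772.96 kb (150463023), in an exon, wt MEFs were at exactly 20% and βerko MEFs at 87.5%, and at 375.81 and 318.28 kb the wt levels were 20.4 and 20.7% with 90.9 and 95.3% in βerko MEFs. On the side of losses, the position at 696.66 kb was at 92.1% in wt against 23.1% in βerko MEFs. Just inside it were the loss from 80.5% at 721.1 kb and the gain to 81.0% at 326.14 kb. Read numbers were used only at DMPs, so that the depth behind these and all other positions is unknown here and no interval is given for them.

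The mean over the 602 positions was 49.1% in wt against 51.0% in βerko MEFs, a difference of 1.95 percentage points, and the median difference was 0. The dense gene start weighs on this mean, and as a mean of 1 kb bins the difference was 7.54 points. Below 20% were 36.9% of the positions in wt (95% Wilson interval 33.1 to 40.8%) and 37.7% in βerko MEFs (33.9 to 41.6%). Intermediate levels from 20 to 80% were found at 26.9% in wt (23.5 to 30.6%) and 21.6% in βerko MEFs (18.5 to 25.1%), and levels above 80% at 36.2% (32.5 to 40.1%) and 40.7% (36.8 to 44.7%). These intervals cover counting error only, over neighbouring positions of 1 library that are not independent. Between the libraries, 64 positions went from intermediate to above 80%, 41 from above 80% to intermediate, 38 from intermediate to below 20% and 29 from below 20% to intermediate.

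**Figure D3:**
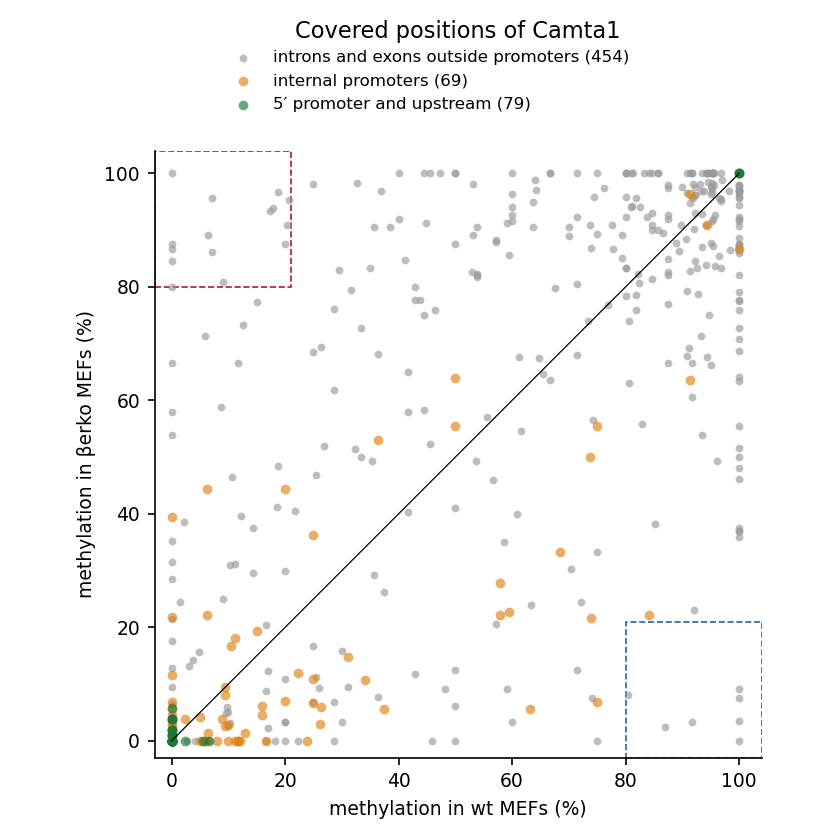
Methylation (%) in wt against βerko MEFs at the 602 covered positions, with the 79 positions of the 5′ promoter and upstream in green, the 69 of internal promoters in orange and the 454 others of introns and exons in grey. Dashed boxes hold the hypomethylated (lower right) and hypermethylated DMPs (upper left), the line marks equal values, and almost all green points lie at or near 0 in both libraries.

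The start of Camta1 did not take part in these differences. Within 1824 bp around it, 118 positions were covered, with a mean of 0.180% in wt against 0.340% in βerko MEFs and single differences from -6.67 to 6.45 percentage points. In the 250 bases before the start, 4 positions of 3 CpGs were covered and all were at 0% in both libraries. These bases are shown for the density of CpGs, in capitals, at a stretch where 3 CpGs were read and the others were not covered. They are given in the direction of transcription, thus from the minus strand.
Before the gene start, chr4:151235986-151236235: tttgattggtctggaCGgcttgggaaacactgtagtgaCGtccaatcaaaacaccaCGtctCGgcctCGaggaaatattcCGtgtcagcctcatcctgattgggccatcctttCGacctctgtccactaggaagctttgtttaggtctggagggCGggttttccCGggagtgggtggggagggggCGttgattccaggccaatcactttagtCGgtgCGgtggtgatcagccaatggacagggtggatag
The stretch holds 12 CpGs in 250 bases and 1 CCGG. Over the whole 5′ promoter, taken from the 5 transcript starts within 1 kb of the gene start, 47 positions had means of 0.142% in wt against 0.0345% in βerko MEFs. In the upstream part outside it, the means of 32 positions were 9.62 and 10.2%, and 3 positions at 2.2 kb before the start were at 100% in both libraries.

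Introns outside promoters, with 423 positions, had means of 59.1% in wt against 63.0% in βerko MEFs. Lower by at least 20 points were 58 of them and higher were 94. By the gene models of all genes, 13.8% of the intronic positions of Camta1 were lower and 22.2% higher, its DMPs included. Over all intronic positions, the shares were 10.6 and 7.92%. At 31 positions in exons outside promoters, the means were 79.5 and 81.9%, with 5 lower and 5 higher by that margin. At 69 positions in internal promoters, the means were 25.7 and 17.4%, with 15 lower and 4 higher. By that margin, lower positions outnumbered higher ones in internal promoters, higher positions outnumbered lower ones in introns, and exons held as many of each.

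The internal promoters were represented mostly by a pair of transcript starts at 753.3 and 753.57 kb, near which 3 of the 7 hypomethylated DMPs lay. The CpG-rich stretch there, 425 bp with 61 covered positions, had means of 21.8% in wt against 11.7% in βerko MEFs. In it, 14 positions were lower and 2 were higher by at least 20 points, and none was a DMP. At 753.23 kb, both strands of 1 CpG were lower in βerko MEFs, with 75.0 against 6.90% on the plus and 63.2 against 5.56% on the minus strand. The next stretch downstream, 689 bp with 16 positions and the 3 DMPs, had means of 44.3 and 23.5%.

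Even in this stretch single CpGs went their own way. Between the DMPs at 754.25 and 754.22 kb, the CpG 10 bp from the first (150481746) was low in both libraries, at 16.7% in wt against 20.4% in βerko MEFs. The CpG after the pair (150481769) was at 100 and 37.0%. The DMP at 754.63 kb had a neighbour 25 bp away (150481379) that was higher in βerko MEFs, at 40.5% against 21.7%. At 754.05 kb (150481937), methylation was 0% in wt against 53.8% in βerko MEFs. The other internal start with covered positions, at 732.38 kb, had means of 54.8 and 61.0% over 8 positions.

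**Figure D4:**
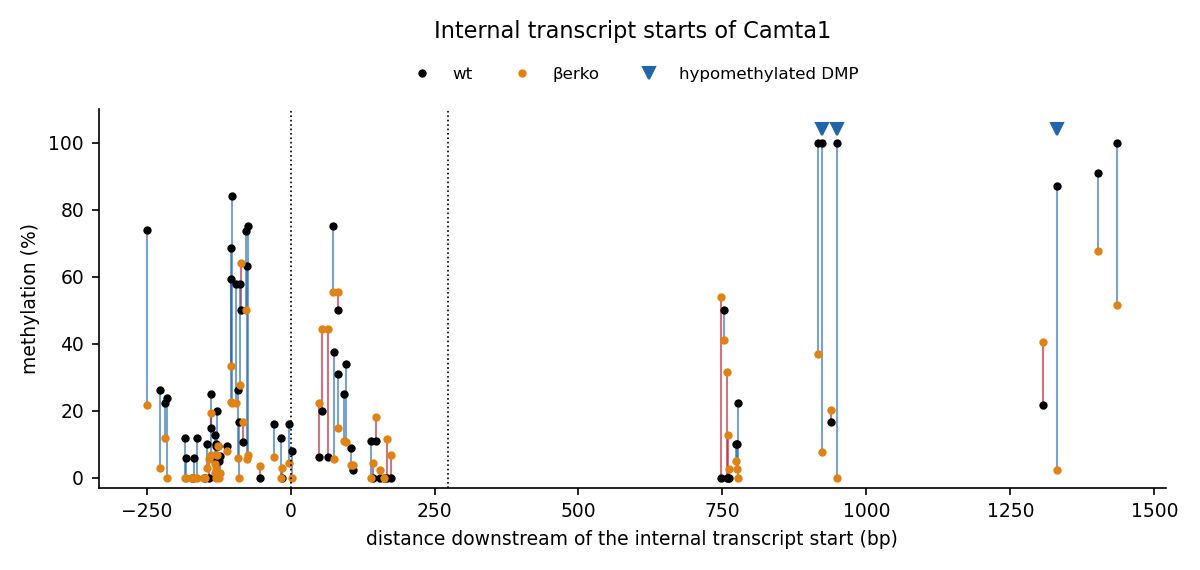
Methylation (%) in wt (black) and βerko MEFs (orange) against distance (bp) from the transcript start at 753.3 kb of Camta1, with the libraries joined by a blue line where βerko was lower and a red line where it was higher, triangles at DMPs and dotted lines at both internal starts. Most lines are blue, and single red ones lie between the 3 hypomethylated DMPs.

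Neighbouring CpGs moved with the DMPs in part. Other CpGs within 100 bp were covered at 6 of the 7 losses, and the median of their mean differences was -16.4 percentage points, with a range from -53.1 to -2.22. At the pair 26 bp apart each DMP is a neighbour of the other, and without DMPs among the neighbours the range was from -29.6 to -2.22 with the same median. The neighbours were lower by at least 20 points at 3 of these 6 and within 20 points at the other 3. At 205.59 and 721.1 kb, however, the neighbours had wt means of 12.5 and 9.86% and could not fall by 20 points. At the 9 gains with such CpGs, the median was 6.28 points, with a range from -8.41 to 54.9, and the neighbours were higher by at least 20 points at 2 and within 20 points at 7. At 87.47, 122.15, 470.68 and 725.58 kb, however, the neighbours had wt means above 80% and could not rise by 20 points. At 87.47 kb, for example, the neighbour was at 97.1% in wt against 98.8% in βerko MEFs. At the others within that margin, at 249.77, 326.14 and 723.75 kb, the wt means were below 80% and left room for such a rise. At 353.56 kb, by contrast, the neighbour was higher in βerko MEFs as well, at 90.6% against 35.7%.

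By stretches of at least 3 covered positions, with gaps of at most 500 bp, the gene had 68 units, of which 54 held no DMP. In 3 of these 54 the mean was lower and in 6 higher by at least 20 points in βerko MEFs, and in 45 it was within that margin. The stretch at 578.54 kb was lower at all 4 of its positions, with differences from -58.9 to -14.2 points, and had means of 39.6% in wt against 8.80% in βerko MEFs. That at 450.04 kb had means of 26.9 and 0% over 3 positions. The stretch at 627.6 kb was higher at all 5 of its positions, by 18.9 to 34.1 points, with means of 54.9 and 80.3%, and that at 509.69 kb had means of 64.9 and 96.0% over 3 positions. In 13 of the 54, positions lower and positions higher by at least 20 points occurred side by side.

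The strands of 1 CpG offer a check on single positions. At 39 CpGs covered on both strands, the median gap between strands was 5.71 percentage points in wt and 2.67 in βerko MEFs. A difference of at least 20 points between the libraries was found on at least 1 strand at 14 of them. Both strands had the same sign at 10 of the 14, 7 lower and 3 higher, and at 5 both strands differed by at least 20 points in the same direction.

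The gene was also divided into 10 parts of 80.2 kb, counted from its start. Part 1, with 75 positions, had means of 10.4% in wt against 10.2% in βerko MEFs and no position that differed by 20 points. The mean difference was largest in part 7, where 24 positions had 72.7% in wt against 87.5% in βerko MEFs, and in part 5, with 73.1 against 84.2% over 42 positions. In part 4, 8 of 31 positions were lower, 12 were higher and 11 were within 20 points. Part 10 was the most densely covered, with 147 positions, and had means of 45.5 and 43.4%, with 27 positions lower and 19 higher by that margin.

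The sequence around the DMPs was compared with that around intronic positions outside promoters that had the same level in both libraries. Internal promoters were thus left out, where 58.0% of positions in wt and 69.6% in βerko MEFs were below 20%. The 7 losses had a median of 12 CpGs within 100 bp, with a range from 1 to 15. Those at 754.22 and 754.25 kb, 26 bp apart, shared most of this window, at 15 and 14 CpGs, but were counted separately. Intronic positions above 80% in both libraries, of which there were 149, had a median of 6. The 11 gains had a median of 4 CpGs, with a range from 2 to 9. The 69 intronic positions outside promoters below 20% in both libraries had a median of 32, with a range from 2 to 41. Of those 69, however, 42 lay within 1 kb of the gene start, in its CpG-rich stretch, with a median of 35.5 CpGs. The other 27 had a median of 8 CpGs, with a range from 2 to 34. The GC content within 100 bp had a median of 57.9% at losses, 50.5% at gains and 81.7% at those 69 positions. The CpG of an MspI site itself was the DMP at 4 of 7 losses, 57.1%, close to the 55.7% of positions above 80% in both libraries. It was the DMP at 8 of 11 gains, 72.7%, against 51.9% of the 27 low positions away from the gene start and outside promoters.

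Read numbers at the DMPs of Camta1 were higher in βerko MEFs at 18 of 18. The median ratio of βerko to wt reads was 4.14 at losses and 1.91 at gains. Over all DMPs with more than 4 reads, 83.9% of the hypomethylated and 40.2% of the hypermethylated DMPs had more reads in βerko MEFs, with median ratios of 1.87 and 0.909. Chromosome 4 stood apart in this, since 79.9% of its 283 hypermethylated DMPs had more reads in βerko MEFs, with a median ratio of 1.65 against 0.846 on the other chromosomes. On the other autosomes this ratio was at most 1.04. At the hypomethylated DMPs of chromosome 4, the median ratio was 2.78, against 1.80 on the other chromosomes. Within 1 Mb on either side of Camta1, 97.5% of 40 DMPs had more reads in βerko MEFs. The median ratios there were 3.15 at losses and 1.86 at gains. Chromosome 4 also had rank 2 of 21 chromosomes, after X, in the share of positions that were DMPs, for hypomethylated (1.00%) as for hypermethylated DMPs (0.483%). The part of read number in the differences at Camta1 was not tested, nor was the number of copies of chromosome 4, since reads were used only at DMPs.

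Within 1 Mb on either side of Camta1, 2411 positions were covered, with means of 43.5% in wt against 39.8% in βerko MEFs. There, 12.3% were lower and 5.64% higher by at least 20 points, compared with 13.0 and 17.1% in Camta1. The 2411 positions held 32 hypomethylated DMPs, 1.33%, and 8 hypermethylated DMPs, 0.332%, compared with 1.16 and 1.83% in Camta1. The share of losses was thus not higher in Camta1 than around it. Of 8 listed neighbours, 1 had a DMP, while 14.8% of all protein-coding genes with covered positions had a DMP. Tnfrsf9, a receptor of the TNF family, had 1 hypermethylated DMP, and Vamp3, Per3, Uts2, Dnajc11, Thap3, Phf13 and Klhl21 had none. The mean of Per3, a clock gene, was 37.0% in wt against 34.4% in βerko MEFs at 62 positions, and that of Vamp3, a vesicle protein, was 1.82 and 1.77% at 60 positions.

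Genes of the pathway ranged from nearly unmethylated to highly methylated. Camta2, the other member of the family, had means of 15.2% in wt against 15.4% in βerko MEFs at 60 positions, with 0 positions lower, 2 higher by at least 20 points and no DMP. Calm2 and Calm3, which encode calmodulin, had means of 0.173 and 13.1% in wt and 0.0885 and 12.0% in βerko MEFs. Hdac5, a class II histone deacetylase known to repress CAMTA2, had means of 31.7 and 31.2% at 93 positions, with 7 lower and 10 higher. Nkx2-5, a cardiac homeobox factor that works with CAMTA2, had 1 hypomethylated DMP and means of 46.6 and 39.6% at 67 positions, of which 19 were lower, 28.4%, and 6 higher by at least 20 points. The gene model of Hdac4 used here covers only 2.39 kb, with 9 positions at 88.4 and 96.4%. Of the 6 genes given here, 1 thus had a DMP, in the direction of loss, while 14.8% of all protein-coding genes with covered positions had a DMP.

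Among 17751 protein-coding genes with covered positions, 257 held DMPs of both directions. Of the 24 genes with 0.5 to 2 times as many covered positions as Camta1, itself among them, 12 did, and 8 had at least as many losses and 1, Camta1 itself, at least as many gains. By the smaller of a gene's counts, Camta1 ranked 2 with 7 losses and 11 gains, tied with Pitx1, a homeobox gene, with 46 losses and 7 gains. This rank restates the choice of Camta1, which was made for its DMPs of both directions. Only Gm20388 ranked higher, a gene model of 4435 kb with 6495 positions, 25 losses and 13 gains. Prdm16 and Casz1, zinc finger genes on chromosome 4 like Camta1, followed with 26 losses and 5 gains, and 11 losses and 5 gains. The mean of Prdm16 was 70.4% in wt against 55.9% in βerko MEFs and that of Casz1 58.7 against 50.3%, whereas Camta1 had 49.1 against 51.0%. Camta1 was rank 3 of these genes in covered positions and rank 84 in length, and both raise the number of DMPs that a gene can hold. Of 85 genes with at least 10 DMPs, Camta1 was 1 of 3 with more gains than losses. With thresholds of 10 and 90% in place of 20 and 80%, Camta1 had 5 losses and 2 gains, so that this order turned. Of the 12 genes with at least 3 DMPs in each direction, 6 lay on chromosome 4, which holds 6.31% of the genes compared.

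**Figure D5:**
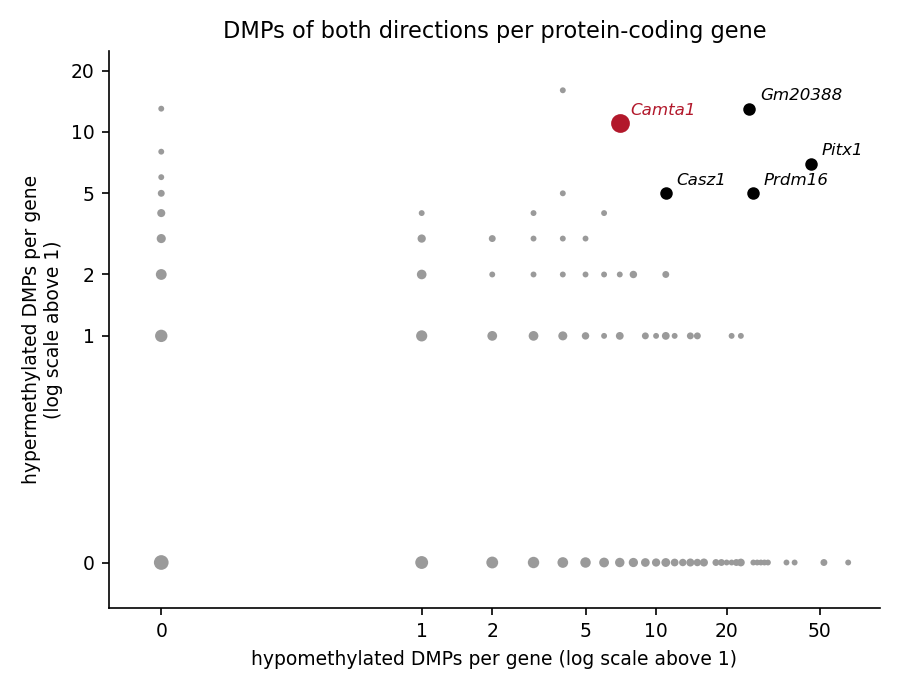
Hypomethylated against hypermethylated DMPs per protein-coding gene, on axes that are linear up to 1 and logarithmic above, where grey points grow with the number of genes at that pair of counts. Camta1 (red) lies at 7 and 11, with more gains than the other named genes except Gm20388 and fewer losses than any of them.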

How the data were processed

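RRBS was made of 1 library each of wt and βerko MEFs. The authors' processing notes name CASAVA 1.4 and mm9. Mapping was done by the authors on a Genomatix Mining Station (version not given in the sources used here). They deposited the methylation, in percent, of the cytosines that both libraries covered, with no depth. For DMPs they deposited the count of reads per library and an annotation. Percentages at DMPs were multiplied by these counts and gave whole methylated reads within 0.0025 of a read. On chromosome 4, 58652 of 58652 positions were CpG cytosines of NCBIM37, and gene models were those of GENCODE for this build.

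No test was run, because there are no replicates and the gene was chosen on this contrast. Camta1, the gene lists and the thresholds were chosen with earlier results of these data known, and the stretches with gaps of 500 bp and the counts by chromosome were added after the values had been seen. Named were Camta1 with all its DMPs, 6 genes of its pathway (a further listed gene is not reported here), 8 neighbours, Prdm16 and the 5 genes with the largest smaller count of DMPs. Intervals of single positions are exact (Clopper-Pearson) and those of shares Wilson intervals, at 95%. Both cover counting error only. Alternatives changed the read minimum, thresholds, strands, window, weighting and gene assignment. The functions were tested on simulated data. Calculations used Python 3.11.15, NumPy 2.4.6, pandas 2.3.3, SciPy 1.17.1 and matplotlib 3.10.9.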

Additional observations from a re-analysis of the deposited data

How the results depend on the processing

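Of 41 alternatives to 14 results, 30 were classed as the same and 11 as moved. Values classed as the same could still differ. The median difference of neighbours at hypermethylated DMPs was 12.4 points within 500 bp, against 6.28 within 100 bp. With at least 10 reads in both libraries, 4 of the hypomethylated DMPs of Camta1 were left, since 3 had fewer wt reads, and 9 hypermethylated DMPs. With thresholds of 10 and 90%, the hypermethylated DMPs fell to 2 and the hypomethylated to 5, so that losses then outnumbered gains. For the gene body alone, the means were 53.3% in wt and 55.5% in βerko MEFs. As means of 1 kb bins, in which the dense gene start counts for little, they were 63.8 and 71.4%, with a difference of 7.54 percentage points. Positions lower in βerko MEFs numbered 122 at a margin of 10 points and 25 at 50 points, and positions higher 143 and 36. By the authors' field for the overlapped gene, Camta1 had rank 1 by the smaller count of DMPs. Merged strands were means of the percentages, because read numbers were used only at DMPs. Both groups have 1 library, so that no library could be left out. No paired analysis was possible because each cell type has 1 library and the result comes from no test. Depth limits the single positions, with 5 to 7 wt reads at 5 of the 18 DMPs. The neighbours without DMPs among them were an alternative chosen after seeing the data.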
